A study of Homo sapiens with 8 samples.

Results

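Wild-type cyclin D1 was compared with empty vector in JVM13, an established line of human B cells that came from a prolymphocytic leukaemia, on 5 of the 8 expression arrays of the series. The arrays were chosen by their titles. They were 3 arrays of cells in which doxycycline switches on wild-type cyclin D1 and 2 arrays of cells made in parallel with the matching empty vector. The other 3 arrays came from cells with the T286A form of cyclin D1, a stabilised protein. They were used for the estimate of spread and to test where the constructs differed. Cells of all groups, the empty vector controls included, had received 0.1 µg/mL doxycycline, so the comparison is between induced transgene and induced empty vector and not between drug and no drug. The labels do not say whether a construct stands for 1 clone or a mixed population, how long induction lasted, or whether the replicates were separate cultures. The p-values therefore rest on the scatter among these arrays alone, and that scatter could be technical.

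Cyclin D1 is the regulatory subunit of the kinases CDK4 and CDK6. In the textbook account the active kinase phosphorylates the retinoblastoma protein RB, which releases E2F transcription factors, and these in turn switch on genes for DNA replication. Cyclin D1 is nearly silent in normal B cells and is activated by translocation in mantle cell lymphoma and in some myelomas. The question of the comparison was which transcripts of a B-cell line change when the protein is supplied from outside.

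For each of 18231 genes the brightest of its probe sets (the mean over all 8 arrays) gave the level, as a log2 value made by robust multi-array averaging (RMA). Levels are on that log2 scale, differences are wild type minus empty vector on the same scale ± the standard error of the fit, and a gene is said to have risen or fallen only where limma's test gave an adjusted p (Benjamini-Hochberg, all genes) under 0.05. RMA values are relative to the other genes on the arrays. The deposited arrays did not share 1 exact distribution, since their medians over genes lay between 5.87 and 6.0, with wild-type replicate 2 the lowest. Wild-type replicate 2 stood apart from the other arrays, with a limma array weight of 0.513 against 0.850 to 1.44, and its correlations with the other wild-type arrays were 0.995 to 0.996 against 0.997 between those. The 3′ minus 5′ log2 difference of actin control probe sets was 0.091 to 0.11 in wild type and 0.077 to 0.079 in empty vector. The groups did not overlap in this measure, and its part in the results was not tested. For GAPDH the groups overlapped.

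The cells carried the markers of their labelled type in both groups. All 10 measured B-cell markers lay above the median of all genes (5.94), and their summed level was 14.82 to 14.83 in wild type and 14.86 to 14.89 in empty vector. CD22 was the 1 member called, lower in wild type. All 8 plasma cell markers also lay above the median, with a summed level of 14.45 to 14.49 in wild type and 14.40 to 14.44 in empty vector, and SDC1 was the 1 member called, higher in wild type. Of 18 T and NK cell markers, 2 lay above that median, and their summed level was 9.01 to 9.26 in wild type and 9.28 to 9.29 in empty vector. The cytotoxic granule gene PRF1 was the 1 member called, and it fell by 0.65 ± 0.1 (adjusted p = 0.0203). The 13 myeloid markers had a summed level of 9.13 to 9.24 in wild type and 9.92 to 10.06 in empty vector. Without VCAN, the 1 member called, it was 8.69 to 8.91 and 8.93 to 8.98. Epithelial and fibroblast markers had 0 of 13 members called by limma and 0 at an unadjusted p under 0.05. The 8 erythroid and endothelial markers, of which 1 lay above the median, had a summed level of 9.02 to 9.21 in wild type and 8.85 to 8.93 in empty vector, without overlap. Of these 0 were called by limma and 2 were higher at an unadjusted p under 0.05. The part of these markers in the results was not tested.

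CCND1, the gene of the transgene, checked the labels. The wild-type arrays read 10.98, 11.14 and 11.07 and the empty vector arrays 5.25 and 4.98. Every wild-type array was thus far above every control, which itself lay below the median of all genes. The difference was 5.95 ± 0.13 (95% interval 5.65 to 6.24, adjusted p = 5.22e-07). Of the 4 CCND1 probe sets on the array only this 1 responded. The other 3 read between 3.85 and 4.69 on every wild-type and empty vector array, and where in the transcript they bind was not analysed here. The other cyclins, kinases and inhibitors of this step did not pass the test. Of 14 measured members, CCND1 alone was called. CCND2, the cyclin D2 gene, had a difference of -0.18 ± 0.061 (adjusted p = 0.244) and CDK4 of 0.029 ± 0.077 (adjusted p = 0.921). CDKN1A, the inhibitor p21, had 0.17 ± 0.063 (adjusted p = 0.287).

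**Figure D1:**
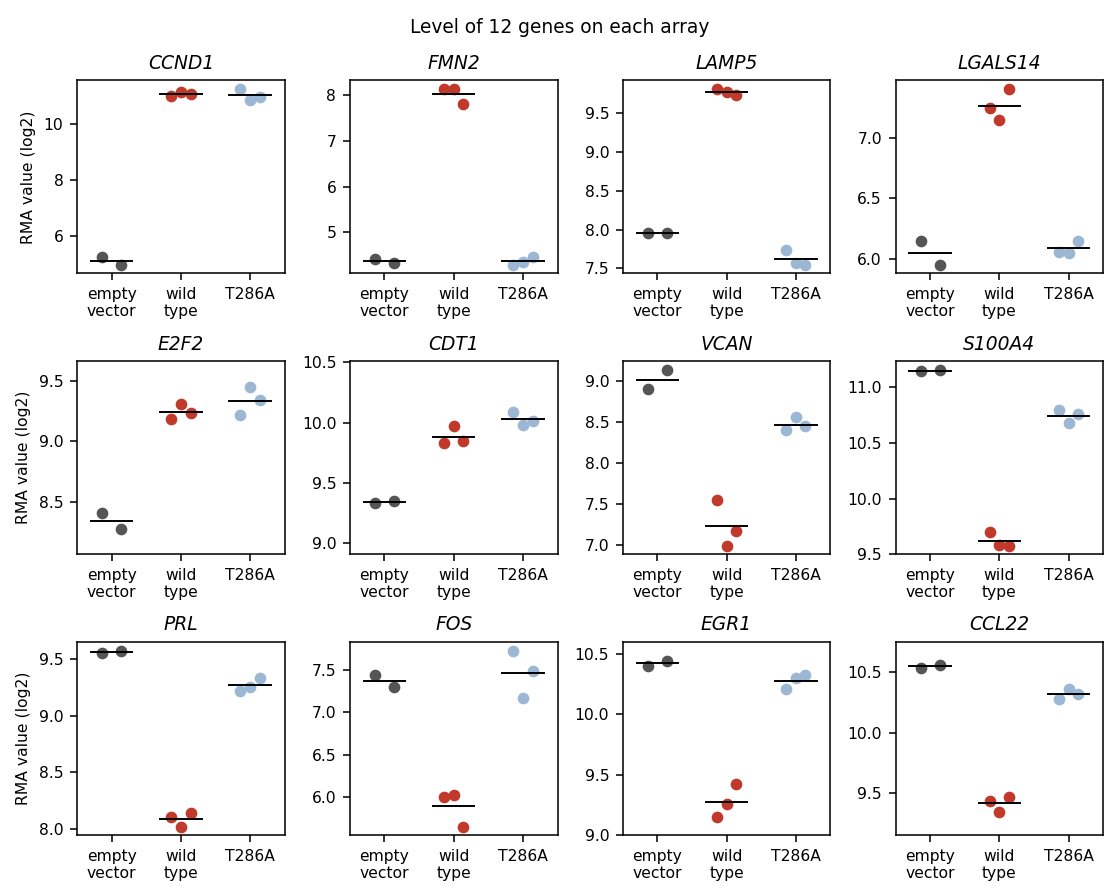
RMA level (log2, vertical axis) of 12 genes on each array, with a point per array, grouped as empty vector (2 arrays), wild type (3) and T286A (3), and a bar at each group mean. In all 12 genes the wild-type points lie entirely above or entirely below the empty vector points.

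In all, 317 genes differed between wild type and empty vector, which is 1.74% of those tested: 110 rose (0.603%) and 207 fell (1.14%). At an unadjusted p under 0.05 the counts were 1109 and 1352. The wild-type arrays lay entirely above the controls for 15.2% of all genes and entirely below them for 15.3%, and this was so for all 317 called genes. Most changes were small. The median was 0.49 among genes that rose and -0.61 among those that fell, and 7 rises and 27 falls exceeded 1. Falls were thus more frequent than rises, though not with each array centred on its median, which gave 195 higher and 146 lower. In bulk RNA, fewer cells of a kind and less RNA per cell cannot be told apart. Of the called genes, 11 rises and 20 falls were in genes below the median level in both groups, where RMA compresses differences. The median difference over all genes was 0.0016.

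Measured from the empty vector mean, the genes that rose had medians of 0.49, 0.48 and 0.50 in wild-type replicates 1, 2 and 3, and the genes that fell had medians of -0.58, -0.65 and -0.57. These arrays also made the calls, so their likeness describes the called genes and is no check of them. More than 1 probe set was available for 234 of the called genes. Another probe set was itself called in the same direction for 81 of these, for 0 was one called in the opposite direction, and all other probe sets shared the direction for 195. The count depended strongly on single arrays: it was 153, 196 and 188 without wild-type replicate 1, 2 or 3, 185, 191 and 172 without T286A replicate 1, 2 or 3, and 43 and 22 without empty vector replicate 1 or 2, while all 317 genes kept their direction in the 8 fits. That direction was fixed in advance and is no check, since the wild-type and empty vector arrays of these genes did not overlap. The T286A arrays do not enter the means compared. Fitting the 5 arrays alone called 68 genes.

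**Figure D2:**
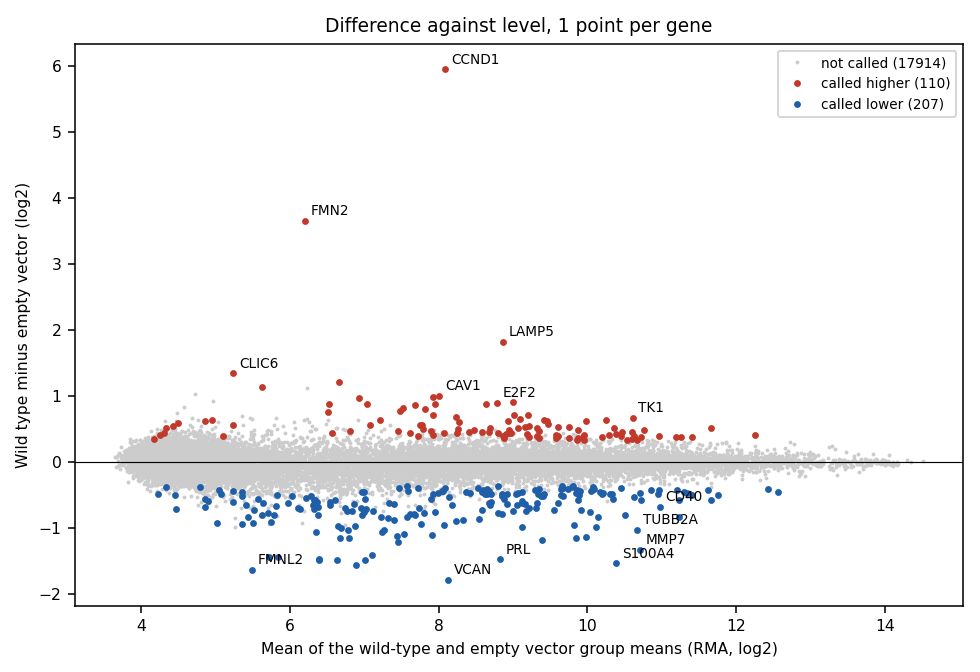
Difference between wild type and empty vector (log2, vertical axis) against the mean of the group means (RMA, log2, horizontal axis), with 1 point per gene. Red points are the 110 genes called higher, blue points the 207 called lower and grey points the rest; CCND1 and FMN2 lie far above all other genes.

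The genes called in the fit and in every one of the 8 fits without 1 array numbered 21. Besides CCND1 they were FMN2, LAMP5, LGALS14, CBLN2 and EPHA3 among the rises, and VCAN, CCR9, S100A4, PRL, MMP7, ALDOC, EGR1, CCL22, SNX9, TUBB2A, OAS3, DUSP2, SPOCK1, ENPP2 and TNFAIP2 among the falls. Every other gene named below as called lost its call in at least 1 of those fits.

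The largest rises outside CCND1 were not genes of the cell cycle. FMN2, a formin that nucleates actin filaments, read 8.13, 8.14 and 7.81 in wild type and 4.42 and 4.34 in empty vector. It was thus at the level of dim probe sets in the controls and well above the median of all genes with cyclin D1, a rise of 3.65 ± 0.11 (adjusted p = 4e-06). A linear fold is not given, since RMA compresses differences from so dim a level. In T286A it read 4.29, 4.35 and 4.45, with no overlap with wild type, and T286A minus wild type was -3.66 ± 0.098 (adjusted p = 3.11e-06). LAMP5, a membrane protein of the lysosome family best known from neurons and plasmacytoid dendritic cells, read 9.81, 9.77 and 9.74 against 7.95 and 7.96, a rise of 1.82 ± 0.077 (adjusted p = 4.2e-05). It too stayed low in T286A, at 7.74, 7.57 and 7.55. LGALS14, a galectin of placenta, read 7.25, 7.15 and 7.41 against 6.15 and 5.95, and rose by 1.22 ± 0.097 (adjusted p = 0.0016).

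Further rises of this kind included secreted and membrane proteins better known from other tissues. CLGN, a testis chaperone of the endoplasmic reticulum, rose by 1.13 ± 0.16 and NEBL, an actin-binding protein of muscle, by 0.98 ± 0.11 (adjusted p = 0.0146 and 0.00612). The secreted synaptic organiser CBLN2 rose by 0.91, the ephrin receptor EPHA3 by 0.71, the WNT receptor FZD8 by 0.77 and the tetraspanin CD9 by 0.72. CAV1, the scaffold protein of caveolae, read 8.75, 8.40 and 8.36 in wild type and 7.52 and 7.49 in empty vector, a rise of 1.00 ± 0.12 (adjusted p = 0.00667). It was the 1 call of 13 caveola and raft genes. LCK, a SRC-family kinase of T cells that is also found in leukaemic B cells, rose by 0.81 ± 0.1 (adjusted p = 0.011), and the cytokine receptor kinase JAK1 by 0.53 ± 0.079 (adjusted p = 0.0173). They were the 2 called of 28 tyrosine kinases.

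Other rises were in genes of varied function. STK17B, a kinase of the death-associated family, rose by 0.98, the kinesin KIF16B by 0.65, the forkhead factor FOXN3 by 0.65 and the nucleosome-binding protein HMGN5 by 0.64. MYBL1, a MYB-family transcription factor found in germinal centre B cells, read 8.33, 8.49 and 8.38 against 7.67 and 7.37 and rose by 0.88 ± 0.12 (adjusted p = 0.0139). CYP4F2, an enzyme that inactivates leukotriene B4, rose by 0.89 ± 0.12; its paralogs are close enough that a probe set may read a relative. SPATA18, a mitochondrial quality gene induced by p53, rose by 0.76 ± 0.11. It was the only call among 26 p53 target genes, whose median was 0.12. APOBEC3B, a cytidine deaminase with near-identical relatives, rose by 0.63 ± 0.079. CLIC6, a chloride channel family member below the median of all genes in both groups, rose by 1.35 ± 0.17; it falls outside the rule for named genes and was chosen after its values were seen.

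Most measured genes of DNA replication and division had small positive differences, and a minority passed the test. In 9 lists of the cell cycle joined (E2F factors, cyclins E, A and B, licensing, fork, nucleotide, repair, checkpoint, chromatin and spindle genes, 220 genes), 203 differences were positive, 30 genes rose and 1 fell, and the median was 0.24 against 0.0016 over all genes. Without wild-type replicate 2 the counts were 11 and 0. They were 8 and 9 higher without wild-type replicate 1 or 3, 10, 12 and 9 without T286A replicate 1, 2 or 3, and 1 and 0 by limma without empty vector replicate 1 or 2, with 0 lower in each. In that last fit 91 were higher at an unadjusted p under 0.05. The median stayed between 0.21 and 0.26 in all 8. Fitting the 5 arrays alone left 1 of these genes higher and 0 lower by limma, with 122 higher at an unadjusted p under 0.05.

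Among the transcription factors of this step, E2F2 moved most. E2F2, an activator of S-phase genes, read 9.18, 9.30 and 9.23 in wild type and 8.40 and 8.28 in empty vector, so that the lowest induced array was well above the higher control. It rose by 0.90 ± 0.088 (1.87-fold, adjusted p = 0.00347). E2F1 read 8.14, 8.09 and 8.16 against 7.65 and 7.66 and rose by 0.47 ± 0.07 (adjusted p = 0.0174). The repressor E2F8 rose by 0.58 ± 0.11 (adjusted p = 0.0495). The dimerisation partner TFDP2 was the 1 call in the other direction, falling by 0.40 ± 0.068 (adjusted p = 0.0282). Of the next cyclins in order, CCNE2, the cyclin E2 that drives CDK2, read 9.33, 9.42 and 9.22 against 8.77 and 8.84 and rose by 0.52 ± 0.079 (adjusted p = 0.0191). CCNE1 had a difference of -0.19 ± 0.092 (adjusted p = 0.423). FBXO5, an inhibitor of the anaphase-promoting complex, rose by 0.39 ± 0.067. They were the 2 called of 18 members, with a list median of 0.22.

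Origin licensing had the highest median of the 54 gene lists, 0.31. Of its 27 members, 26 had positive differences, 8 rose and 0 fell. CDT1, which loads the MCM helicase onto origins, read 9.83, 9.97 and 9.85 against 9.33 and 9.35 and rose by 0.54 ± 0.072 (adjusted p = 0.0133). The loader CDC6 rose by 0.37 ± 0.064 (adjusted p = 0.0316). Among helicase subunits MCM6 read 10.99, 10.98 and 11.05 against 10.51 and 10.52 and rose by 0.49 ± 0.063 (adjusted p = 0.011), and MCM3 rose by 0.38 ± 0.07. The groups did not overlap in any of these genes. The firing factor MCM10 and 3 of the GINS subunits, GINS4, GINS2 and GINS1, rose by 0.44, 0.41, 0.40 and 0.34.

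At the fork, all 30 of 30 polymerase and fork genes had positive differences and 4 rose, with a median of 0.27. These were the primase PRIM1 (0.48 ± 0.081), the polymerase alpha anchor WDHD1 (0.45 ± 0.077), the clamp loader subunit RFC3 (0.38 ± 0.068) and the polymerase alpha subunit POLA2 (0.36 ± 0.065). TK1, the thymidine salvage kinase, read 10.89, 10.87 and 11.07 against 10.33 and 10.21 and rose by 0.68 ± 0.096 (adjusted p = 0.015). It was the 1 call of 23 nucleotide synthesis genes, whose median was 0.092. The list of homologous recombination and Fanconi genes had 5 rises of 25 and a median of 0.26. They were RMI2 (0.64) and BLM (0.43) of the complex that dissolves Holliday junctions, the nuclease EXO1 (0.52), the replication fork factor MMS22L (0.49) and the helicase BRIP1 (0.44). The checkpoint kinase CHEK2 rose by 0.45 ± 0.071 (adjusted p = 0.023) and the chromatin factor ATAD2 by 0.46 ± 0.062 (adjusted p = 0.0137).

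Genes of chromosome segregation shifted in the same direction. All 54 of 54 spindle, kinetochore and condensin genes had positive differences, with a median of 0.26, and 5 rose. The kinetochore genes SPC25 and CENPM rose by 0.41 ± 0.075 and 0.38 ± 0.06, the spindle assembly protein NUSAP1 by 0.39 ± 0.071, the checkpoint kinase TTK by 0.34 ± 0.065 and the condensin subunit SMC2 by 0.34 ± 0.065. The formin DIAPH3, a cytokinesis gene, rose by 0.41 ± 0.067 (adjusted p = 0.0264). For these 30 genes T286A minus wild type ranged from -0.31 to 0.23. By limma 0 of them differed between the constructs, and 5 did at an unadjusted p under 0.05.

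**Figure D3:**
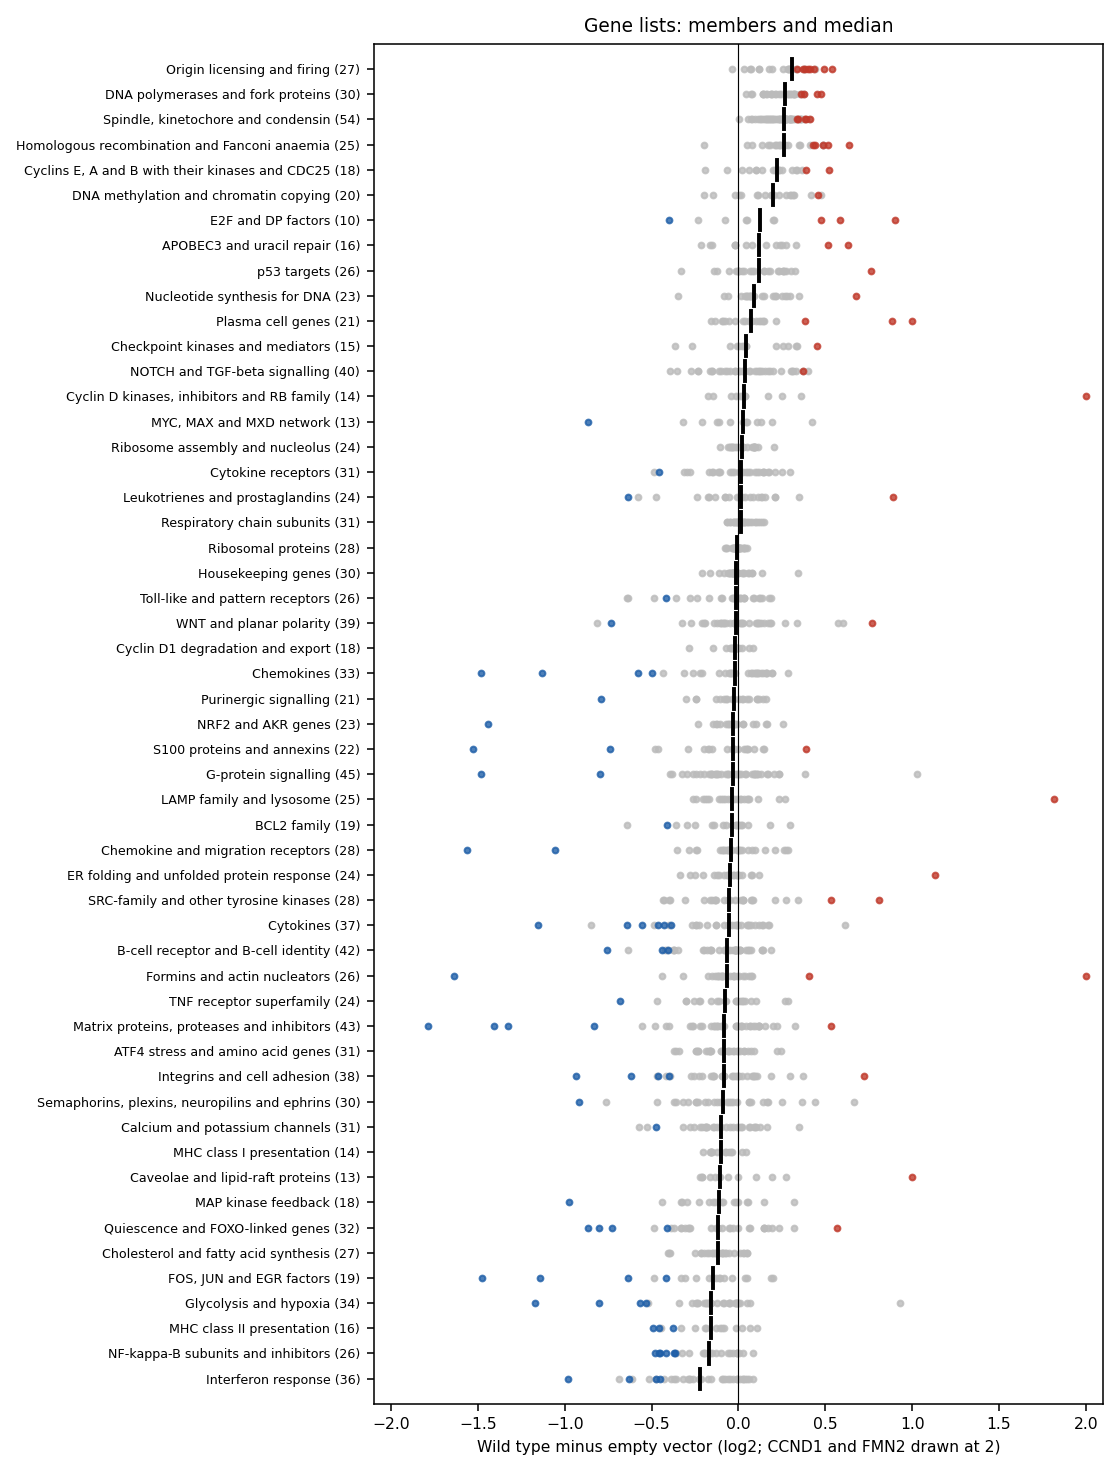
Differences (log2, horizontal axis) of the measured members of 53 of the 54 gene lists, sorted by median, with the number measured in brackets; black bars are list medians, red points are genes called higher, blue points genes called lower and grey points the rest. Origin licensing has the highest median and the interferon response the lowest; CCND1 and FMN2 are drawn at 2.

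Promoters of 4 replication and E2F genes that rose are shown because each holds a close match to the site that E2F factors bind. The E2F letters searched, on both strands, were TTTGGCGC, TTTCGCGC, TTTCCCGC and TTTGCCGC, and capitals mark every match within the stretch. The stretches come from RefSeq promoters (GRCh38.p14) and end at or before the annotated transcript start, written 5′ to 3′ along the gene: E2F2 at chr1:23531234-23531325, minus strand, E2F1 at chr20:33686386-33686468, minus strand, CDT1 at chr16:88803704-88803788, plus strand and MCM6 at chr2:135876538-135876645, minus strand.
E2F2: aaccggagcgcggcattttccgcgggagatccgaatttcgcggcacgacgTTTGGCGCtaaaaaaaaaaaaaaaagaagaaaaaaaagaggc
E2F1: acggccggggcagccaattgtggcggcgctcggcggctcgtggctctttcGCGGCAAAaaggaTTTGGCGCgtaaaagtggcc
CDT1: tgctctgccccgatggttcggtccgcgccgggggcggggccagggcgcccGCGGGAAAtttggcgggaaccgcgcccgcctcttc
MCM6: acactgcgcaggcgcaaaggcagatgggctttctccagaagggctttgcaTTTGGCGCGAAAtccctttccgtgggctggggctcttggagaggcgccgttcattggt
The E2F1 stretch holds 2 matches, 1 on each strand, and the MCM6 stretch 2 that overlap. A match is a description of the letters and not a measured site.

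Over all called genes with a promoter in the table, the E2F letters were more frequent among the rises than among all genes. They were in 20 of 86 promoters of genes that rose (23.3%), in 4 of 168 of genes that fell (2.38%) and in 662 of 14483 of all genes (4.57%), in windows of 300 bases with median GC contents of 62.3%, 62.8% and 63.0%. The 20 included CDC6, MCM3, GINS1, GINS2, POLA2, RFC3, EXO1 and NUSAP1, and also FMN2 and DMRT1, which are no replication genes. Among the rises with no difference called between the constructs the share was 29.5% of 61, and among those lower in T286A it was 8.0% of 25. The share in rises was 15.2% of 33 promoters without wild-type replicate 1 and 13.5% of 37 without wild-type replicate 3. The CHR letters TTTGAA and TTTAAA, known from promoters of mitotic genes, were in 30.2% of the promoters of genes that rose, 26.2% of those that fell and 19.4% of all. The E-box CACGTG was in 1.16%, 8.33% and 8.76%. The AP-1 letters TGANTCA were in 5.81%, 8.33% and 5.70%, and the CRE letters TGACGTCA in 4.65%, 0.595% and 2.60%. These shares were not tested.

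**Figure D4:**
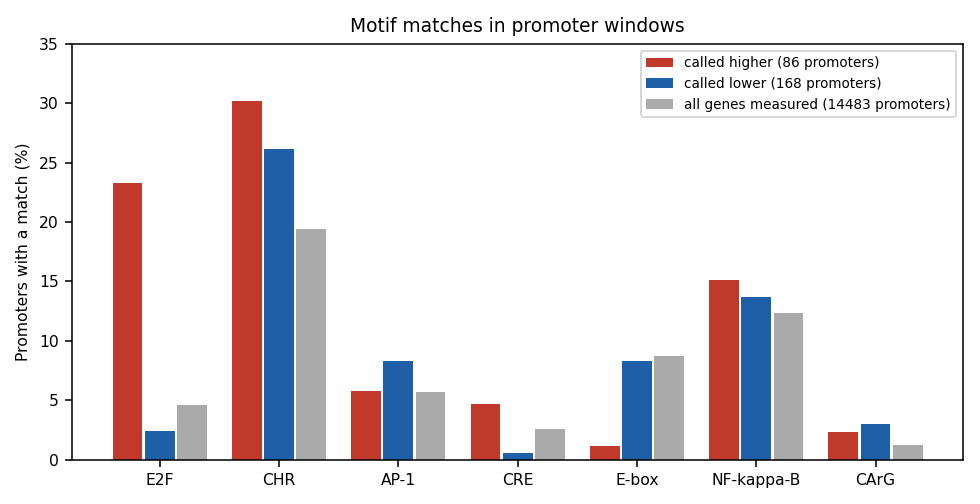
Share of promoter windows of 300 bases with at least 1 match to each motif (percent, vertical axis), for genes called higher (red, 86 promoters), genes called lower (blue, 168) and all genes measured (grey, 14483). The E2F bar of the genes called higher stands at 23.3% against 4.57% for all genes.

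FMN2 is shown beside these because its promoter also holds the E2F letters although its behaviour differed, high in wild type and at control level in T286A. The stretch lies at chr1:240091684-240091791, plus strand. NUSAP1, at chr15:41332791-41332880, plus strand, shows the CHR letters, here TTTAAA, which reads the same on both strands.
FMN2: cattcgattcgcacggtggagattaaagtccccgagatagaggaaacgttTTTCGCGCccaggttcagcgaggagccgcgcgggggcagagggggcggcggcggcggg
NUSAP1: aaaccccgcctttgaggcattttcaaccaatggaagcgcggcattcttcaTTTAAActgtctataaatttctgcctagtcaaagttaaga

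Falls outnumbered rises among genes linked to quiescence. Of 32 measured, 4 fell, 1 rose and the median was -0.12. MXD4, a repressor that competes with MYC for MAX, read 8.15, 7.91 and 8.27 in wild type and 8.92 and 9.03 in empty vector and fell by 0.87 ± 0.11 (adjusted p = 0.0122). TXNIP, an inhibitor of thioredoxin and of glucose uptake, read 8.19, 8.35 and 8.11 against 8.94 and 8.94 and fell by 0.73 ± 0.091 (adjusted p = 0.0109). The stress sensor SESN3 fell by 0.80 ± 0.13 and the nuclear receptor coregulator PNRC1 by 0.41 ± 0.062. FOXO1, a transcription factor that restrains proliferation, rose by 0.57 ± 0.11 (adjusted p = 0.041), against the direction of the list. MYC itself had -0.32 ± 0.088 (adjusted p = 0.14), and MXD4 was the 1 call of 13 genes of its network.

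Among falls the largest was in a matrix gene. VCAN, the proteoglycan versican, read 7.54, 6.99 and 7.17 in wild type and 8.90 and 9.14 in empty vector, with no overlap although wild-type replicate 1 lay higher than the others. It fell by 1.79 ± 0.15 (adjusted p = 0.00214). The serine protease inhibitor SERPINE2 read 6.63, 6.17 and 6.41 against 7.79 and 7.84 and fell by 1.41 ± 0.13 (adjusted p = 0.00345). MMP7, a secreted matrix protease that was bright in the controls, read 10.05, 9.95 and 10.14 against 11.38 and 11.37 and fell by 1.32 ± 0.078 (adjusted p = 0.000258). The granzyme B inhibitor SERPINB9 fell by 0.83 ± 0.086. SPARC, a secreted collagen-binding protein, went the other way and rose by 0.54 ± 0.076 (adjusted p = 0.015). Of 43 matrix genes, proteases and inhibitors, 4 thus fell and 1 rose.

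Of 22 calcium-binding S100 and annexin genes 2 fell and 1 rose, with a median of -0.031. S100A4, a small protein associated with motility, read 9.70, 9.59 and 9.58 against 11.15 and 11.16 and dropped by 1.53 ± 0.072 (adjusted p = 6.31e-05). S100A6 fell by 0.74 ± 0.083 (adjusted p = 0.00652), while the annexin ANXA1 rose by 0.39 ± 0.077 (adjusted p = 0.0495). Of 38 adhesion genes, 4 fell: the collagen receptor subunit ITGA1 by 0.94 at a dim level, the leukocyte ligand ICAM1 by 0.62 ± 0.083, the tetraspanin CD82 by 0.46 ± 0.069 and the hyaluronan receptor CD44 by 0.40 ± 0.064. CD9 was the 1 rise in that list.

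Some single genes of cell movement, both receptors and cytoskeletal parts, fell. CCR9, the gut-homing chemokine receptor, read 6.14, 6.11 and 6.10 in wild type and 7.63 and 7.72 in empty vector and fell by 1.56 ± 0.081 (adjusted p = 0.000111). ACKR3, a scavenging receptor for CXCL12, fell by 1.05 ± 0.14 (adjusted p = 0.0139). These were the 2 called of 28 receptors, which had 11 positive and 17 negative differences and a median of -0.046. FMNL2, a formin of lamellipodia, read 4.78, 4.52 and 4.72 against 6.27 and 6.35 and fell by 1.64 ± 0.19 (adjusted p = 0.00775). Within 26 formins and actin nucleators FMN2 and DIAPH3 thus rose and FMNL2 fell, with a median of -0.068. PREX1, an exchange factor for the GTPase RAC, fell by 0.70 ± 0.092, and the sorting nexin SNX9, which couples membrane curvature to actin, by 1.10 ± 0.11. The beta-tubulin TUBB2A read 10.18, 10.13 and 10.18 against 11.12 and 11.25 and fell by 1.02 ± 0.071 (adjusted p = 0.000781). In G-protein signalling the phospholipase PLCB1 fell by 1.49 ± 0.15 and the alpha subunit GNA15 by 0.80 ± 0.13, 2 of 45 measured. These 45 had 19 positive and 26 negative differences and a median of -0.033. Over all genes 0.603% rose and 1.14% fell.

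Immediate-early genes, which growth factor and antigen receptor signals switch on, were among the falls. FOS read 5.999, 6.03 and 5.65 in wild type and 7.44 and 7.30 in empty vector and fell by 1.48 ± 0.17 (adjusted p = 0.00667). EGR1, a zinc-finger factor induced within minutes of stimulation, read 9.15, 9.26 and 9.42 against 10.40 and 10.44 and fell by 1.15 ± 0.09 (adjusted p = 0.00156). JUN read 6.51, 6.53 and 6.58 against 7.04 and 7.32 and fell by 0.64 ± 0.12 (adjusted p = 0.0393). IER2 fell by 0.42 ± 0.069 (adjusted p = 0.0264). Of 19 such factors 4 fell and 0 rose by limma, with 0 higher at an unadjusted p under 0.05, and the median was -0.15. DUSP2, a nuclear phosphatase that switches off MAP kinases, read 9.54, 9.68 and 9.67 against 10.64 and 10.57 and fell by 0.98 ± 0.082 (adjusted p = 0.0018). It was the 1 call of 18 MAP kinase feedback genes, whose median was -0.11.

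All of FOS, EGR1, JUN, IER2 and DUSP2 were higher in T286A than in wild type, by 1.57 ± 0.15, 1.00 ± 0.081, 0.97 ± 0.1, 0.38 ± 0.062 and 0.62 ± 0.073 (limma adjusted p = 0.00403, 0.00149, 0.00608, 0.0313 and 0.00839). EGR1 is shown because its promoter is a textbook target of serum response factor, whose CArG box (searched by name, and added to the motifs with these results known) is marked in capitals at chr5:138465324-138465433, plus strand.
EGR1: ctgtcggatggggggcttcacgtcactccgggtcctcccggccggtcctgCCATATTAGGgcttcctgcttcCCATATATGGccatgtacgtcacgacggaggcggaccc
The stretch holds 2 such boxes, each read on both strands. CArG boxes were in 2.98% of promoters of genes that fell, 2.33% of those that rose and 1.27% of all, and the FOS window held none.

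Some genes of NF-kappa-B signalling fell, each by less than 0.5. Of 26 subunits, inhibitors and adaptors, 6 fell and 0 rose by limma, with 0 higher at an unadjusted p under 0.05, and 23 differences were negative, with a median of -0.17. The adaptor TRAF1 read 9.05, 9.20 and 9.04 in wild type and 9.62 and 9.53 in empty vector and fell by 0.48 ± 0.076 (adjusted p = 0.0232). The subunits RELB and NFKB2 of the alternative pathway fell by 0.46 ± 0.084 and 0.45 ± 0.084. Inhibitors of the pathway fell too, namely the deubiquitinase TNFAIP3 by 0.42 ± 0.077, its partner TNIP1 by 0.37 ± 0.063 and the I-kappa-B protein NFKBIE by 0.37 ± 0.068. With arrays centred on their medians 0 of these passed limma's test, against 6 of the list lower at an unadjusted p under 0.05, and the list median was -0.11.

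CD40, the receptor through which T cells activate B cells and a strong input to this pathway, read 10.58, 10.67 and 10.65 against 11.35 and 11.28 and fell by 0.68 ± 0.066 (adjusted p = 0.00345). It was the 1 call of 24 TNF receptor genes. BCL2A1, a survival gene of the BCL2 family, fell by 0.41 ± 0.068 (adjusted p = 0.0264), the 1 call of 19 in that family.

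Some chemokines and cytokines, the secreted signals of immune cells, fell. CCL22, a chemokine that attracts regulatory T cells, read 9.44, 9.34 and 9.47 in wild type and 10.54 and 10.56 in empty vector and fell by 1.13 ± 0.068 (adjusted p = 0.00028). CCL20, which recruits cells bearing CCR6, read 6.78, 5.59 and 6.42 against 7.68 and 7.81, a wider spread, and fell by 1.48 ± 0.28 (adjusted p = 0.0454). CCL3 fell by 0.58 ± 0.071 and CXCL8, dim in both groups, by 0.50 ± 0.09. These were 4 of 33 chemokines. Among 37 cytokines, 6 fell: the IL-12 subunit IL12B by 1.15 ± 0.16, the death ligand TNFSF10 by 0.64 ± 0.081, the IL-27 subunit EBI3 by 0.56 ± 0.081, lymphotoxin LTA by 0.46 ± 0.091, the B-cell survival factor TNFSF13B by 0.43 ± 0.083 and IL16 by 0.39 ± 0.075. By limma 0 chemokines and 0 cytokines rose, with 0 and 1 higher at an unadjusted p under 0.05. At that cut 8 chemokines and 12 cytokines were lower. Of the 37 cytokines, 12 differences were positive and 25 negative, with a median of -0.056. Of the 33 chemokines, 16 were positive and 17 negative, with a median of -0.021. Only 6 chemokines reached the median level of all genes in either group.

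CCL20 is shown because its promoter is a textbook target of NF-kappa-B. The capitals at chr2:227813713-227813822, plus strand mark the match to the NF-kappa-B motif, which was searched by name on both strands.
CCL20: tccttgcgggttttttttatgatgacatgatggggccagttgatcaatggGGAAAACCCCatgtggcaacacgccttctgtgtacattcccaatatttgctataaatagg
Matches to this motif were in 13.7% of promoters of genes that fell, 15.1% of those that rose and 12.3% of all. The windows of ICAM1, NFKB2 and TRAF1 held none.

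Interferon-induced genes had the lowest median of the 54 lists, -0.22. Of 36 measured, 29 differences were negative and 4 genes fell. OAS3, a sensor of double-stranded RNA, read 8.68, 8.55 and 8.68 in wild type and 9.58 and 9.65 in empty vector and fell by 0.98 ± 0.071 (adjusted p = 0.000962). EPSTI1 fell by 0.63 ± 0.072 (adjusted p = 0.00652), the antiviral gene IFIT3 by 0.48 ± 0.07 and the GTPase MX2 by 0.45 ± 0.076. T286A was higher than wild type in OAS3, EPSTI1 and IFIT3, by 1.16, 0.51 and 0.56 (limma adjusted p = 0.000202, 0.0114 and 0.00679).

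MHC class II genes, which present antigen to T cells, were among the falls. HLA-DRB1 read 11.06, 11.02 and 11.15 against 11.54 and 11.52 and fell by 0.46 ± 0.068 (adjusted p = 0.0177). Its neighbours HLA-DQA1 and HLA-DQB1 fell by 0.49 ± 0.066 and 0.38 ± 0.067. These genes are polymorphic and have close relatives, so a probe set may read more than its own gene. Of 16 class II genes 3 fell, 13 differences were negative and the median was -0.16. The 14 class I genes had a median of -0.10 and 0 calls by limma, with 2 lower at an unadjusted p under 0.05.

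B-cell identity genes were for the most part not called, and those of plasma cells included 3 rises. Of 42 B-cell genes 3 fell: the Fc receptor-like FCRL2 by 0.75 ± 0.097 and FCRL5 by 0.44 ± 0.085, and the inhibitory coreceptor CD22 by 0.40 ± 0.08 (adjusted p = 0.0112, 0.047 and 0.0498). In this list 31 differences were negative, with a median of -0.067, and by limma 13 genes were lower and 1 higher at an unadjusted p under 0.05. In the plasma cell list of 21 genes, which takes in CAV1, the poly(A) polymerase TENT5C that stabilises immunoglobulin mRNA read 9.15, 9.04 and 9.06 against 8.19 and 8.22 and rose by 0.88 ± 0.094 (adjusted p = 0.00469). SDC1, the plasma cell surface marker CD138, rose by 0.38 ± 0.071 (adjusted p = 0.0411). The plasma cell regulators PRDM1 and IRF4 had 0.036 ± 0.091 and -0.076 ± 0.072 (adjusted p = 0.917 and 0.729).

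Some genes of glucose use and oxygen sensing fell. ALDOC, a glycolytic aldolase, read 8.71, 8.82 and 8.90 in wild type and 9.90 and 10.06 in empty vector and fell by 1.17 ± 0.086 (adjusted p = 0.000999). The regulator of glycolytic flux PFKFB4 fell by 0.81 ± 0.086, the mTORC1 inhibitor DDIT4 by 0.57 ± 0.069 and the mitophagy receptor BNIP3 by 0.53 ± 0.073. Of 34 glycolysis and hypoxia genes, 4 fell and 0 rose by limma, with 1 higher at an unadjusted p under 0.05, and the median was -0.16. In lipid handling the sterol exporter ABCG1 read 6.86, 6.66 and 7.04 against 8.04 and 8.08 and fell by 1.21 ± 0.12 (adjusted p = 0.00345). Among 27 cholesterol and fatty acid synthesis genes 0 were called by limma and 6 were lower at an unadjusted p under 0.05, with a median of -0.12. AKR1C1, a steroid-reducing enzyme with near-identical paralogs, fell by 1.44 ± 0.15 (adjusted p = 0.00466).

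Some large falls were in hormones and proteins of other tissues. PRL, the pituitary hormone prolactin, read 8.11, 8.02 and 8.14 in wild type and 9.55 and 9.57 in empty vector, a level well above the median of all genes in both, and fell by 1.47 ± 0.07 (adjusted p = 6.31e-05). MYOC, the eye protein myocilin, fell by 1.15 ± 0.18. The galactose enzyme GALM fell by 1.46 ± 0.24 and the neuronal leucine-rich protein LRRN3 by 1.44 ± 0.16. EDN1, a vasoconstrictor peptide, fell by 1.06 ± 0.17 (adjusted p = 0.0247). The ATP-gated channel P2RX5, a B-cell surface protein, fell by 0.79 ± 0.078 and the prostaglandin receptor PTGER4 by 0.63 ± 0.1. WNT5B, a non-canonical WNT ligand, fell by 0.74 ± 0.072 (adjusted p = 0.0035).

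Several groups related to growth held no called gene. The 28 ribosomal protein genes lay between -0.076 and 0.051. By limma 0 were called, with 0 higher and 0 lower at an unadjusted p under 0.05. The 24 ribosome assembly genes, many of them MYC targets, had a median of 0.023 and the 31 respiratory chain subunits 0.013. By limma 0 of either were called, with 1 and 0 higher at an unadjusted p under 0.05. Genes for the degradation and nuclear export of cyclin D1 had 0 calls of 18 by limma and 0 lower at an unadjusted p under 0.05. Of the 54 lists, 17 held only rises, 20 only falls, 9 both and 8 no call. List members numbered 1414 measured genes, of which 50 rose and 66 fell. The shares over all genes were 0.603% for rises and 1.14% for falls. Only 11 rises and 20 falls were in genes below the median level in both groups, so brighter genes were called more often than those shares. Whether a list held more calls than equally bright genes was not tested. A count of called members therefore does not by itself set a list apart.

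The direct test between the constructs called some of these rises and falls and not others. T286A minus wild type was called for 180 genes (0.987%). Both comparisons use the wild-type arrays, so their counts are not independent. Of the 110 rises, 31 were lower in T286A than in wild type, and of the 207 falls 72 were higher. None of the 30 rises in the joined cell cycle lists was among the 31, which all lay in the 80 rises outside those lists. TPRG1 was 1 of the 31, reading 9.72, 9.82 and 9.77 in wild type, 9.16 and 9.12 in empty vector and 8.02, 8.05 and 7.92 in T286A, so that it was above the controls in wild type and below them in T286A. T286A minus wild type was -1.77 ± 0.064 (adjusted p = 1.13e-05). MXD4 and PNRC1 were low in both constructs, at 7.58, 7.60 and 7.77 and 10.34, 10.39 and 10.39 in T286A. The count of 103 was 62, 78 and 60 without wild-type replicate 1, 2 or 3, 56, 55 and 53 without T286A replicate 1, 2 or 3, and 36 and 21 without empty vector replicate 1 or 2.

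**Figure D5:**
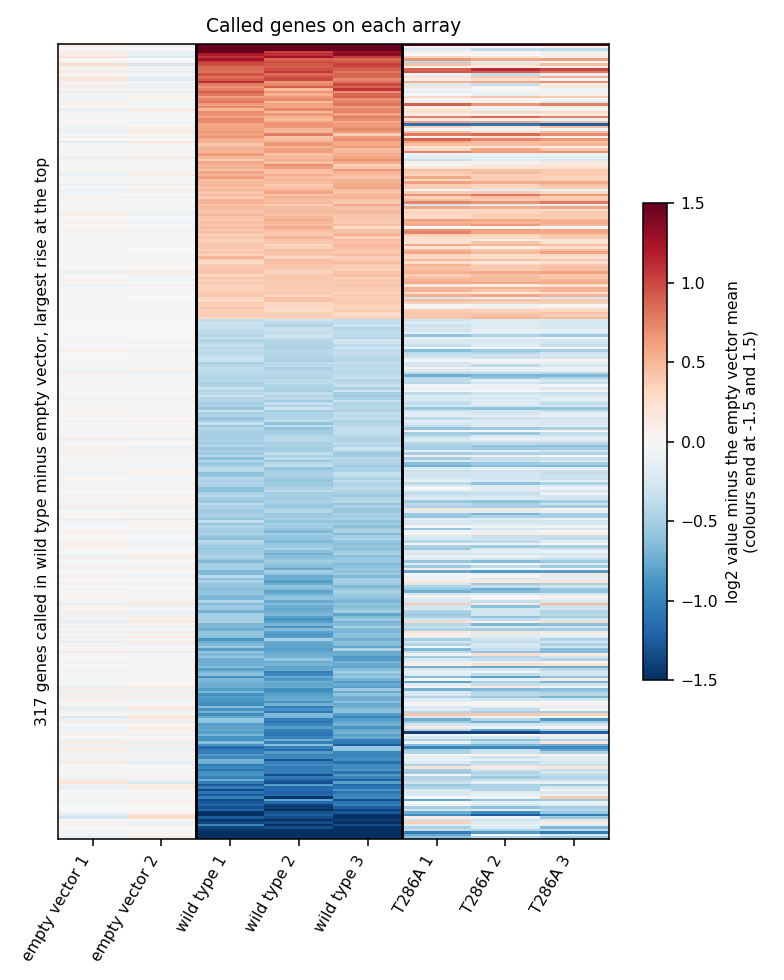
Each row is 1 of the 317 called genes, sorted by difference, and each column an array; colour is the log2 value minus the empty vector mean (red higher, blue lower, colours end at -1.5 and 1.5). The 3 wild-type columns agree in sign in every row, which follows from the non-overlap of all called genes. Many rows are paler in the 3 T286A columns.

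Called genes were spread over the genome, and 10 runs of neighbouring measured genes were called in the same direction. Gene order came from the reference annotation for 18175 genes. HLA-DRB1, HLA-DQA1 and HLA-DQB1 formed the only run of 3. E2F2 adjoins ID3, an inhibitor of basic helix-loop-helix factors, which rose by 0.37 ± 0.066. Other runs of rises were H2BC8 with H2AC8 (0.51 and 0.63), a histone pair with near-identical relatives, and KANK1 with DMRT1 (0.46 and 0.63). Runs of falls were LZTFL1 with CCR9, GHR with CCDC152, EDN1 with PHACTR1, TNFAIP3 with PERP, IER2 with CACNA1A and LPAR2 with GMIP. GHR, the growth hormone receptor, fell by 0.90 and CCDC152 by 0.61. PERP, a desmosome protein, fell by 0.55 and LPAR2, a receptor for lysophosphatidic acid, by 0.69. Medians per chromosome lay between -0.030 and 0.040.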

How the data were processed

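RNA of 8 JVM13 samples was labelled with biotin and measured on an Affymetrix array, per the labels' protocols. The deposited values are log2 expression values that the authors made by RMA, with R 3.5.0 named in the submitters' processing notes. Scanner files were not used, and precision is limited by how few arrays there are. Of 48864 probe sets, 45220 were annotated to 1 gene, 1325 to several and 2309 to none, and 10 control probe sets were left out. Groups came from the sample titles. A mean per group was fitted to all 8 arrays in limma 3.58.1 (R 4.3.3; lmFit, then eBayes with default settings, two-sided, 5 residual and 3.27 prior degrees of freedom, no intensity filter), and adjusted p-values are Benjamini-Hochberg over 18231 genes. Intervals are 95%. The summed level of a marker list is the log2 of its summed linear values. The fit was checked on simulated data with independent normal noise. These data held no array effects, so the check does not cover such effects. Counts and motif shares were made with Python 3.11.15, pandas 2.3.3 and scipy 1.17.1. RefSeq promoters (250 bases before to 50 after the start, GRCh38.p14) were matched by Entrez gene ID for 14483 genes, taking the most 5′ window.

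Named genes were CCND1, the 30 largest rises and 30 largest falls among called genes with non-overlapping arrays and a level at or above the median in the higher group, up to 8 called members of each of 54 lists and 6 marker lists (or, with none called, up to 2 with the smallest p), and runs of called neighbours. Other names are said to be chosen after their values were seen, or serve as context beside a list. The members and lists were chosen with earlier results of these data known. Alternatives were the 5 arrays alone, a replicate block, the mean of a gene's probe sets, dim genes left out, trend and robust options, array weights, centring on housekeeping genes or array medians, and leaving out each array. A gene list and 1 of its genes are not reported here.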

Additional observations from a re-analysis of the deposited data

Results flagged for a closer look

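The change with wild-type cyclin D1 differed from that with T286A, by limma's test of T286A minus wild type, in 60 of the 155 named genes called against empty vector. Differences below are T286A minus wild type (log2), each with an adjusted p under 0.05 over all genes, and all run against the wild-type change. Both comparisons use the wild-type arrays.

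Of these genes, 22 were higher with wild type than with empty vector and lower in T286A than in wild type. The largest differences were FMN2 -3.66, LAMP5 -2.15, TPRG1 -1.77, NEBL -1.19, LGALS14 -1.18, TENT5C -1.09 and CLGN -0.99. Between these and -0.70 lay ELAPOR2 -0.97, SPATA18 -0.87, CBLN2 -0.85, FZD8 -0.81, TMT1A -0.80, LRCH2 -0.77, CD9 -0.72 and JAK1 -0.70. The smallest were LCK -0.68, EPHA3 -0.67, KANK1 -0.66, SPARC -0.62, DMRT1 -0.59, FOXN3 -0.59 and HMGN5 -0.52.

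The other 38 were lower with wild type than with empty vector and higher in T286A than in wild type. Differences over 1 were FOS 1.57, FMNL2 1.30, GALM 1.29, MYOC 1.25, VCAN 1.24, PFKFB4 1.20, PRL 1.18, OAS3 1.16, S100A4 1.13, SERPINE2 1.11, ALDOC 1.11, ABCG1 1.04, PLCB1 1.04 and EGR1 1.00. Those between 0.6 and 1 were JUN 0.97, ADIRF 0.91, CCL22 0.90, EDN1 0.86, P2RX5 0.83, CCDC152 0.79, MMP7 0.77, SNX9 0.71, LPAR2 0.64, DUSP2 0.62 and GOLM1 0.60. The smallest were IGSF3 0.60, CCR9 0.58, IFIT3 0.56, SERPINB9 0.55, TUBB2A 0.55, PERP 0.52, EPSTI1 0.51, BNIP3 0.48, HLA-DRB1 0.47, S100A6 0.43, DDIT4 0.42, TNFSF10 0.41 and IER2 0.38. Causes of these differences were not tested.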

How the results depend on the processing

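The 317 genes called became 68 with the 5 wild-type and empty vector arrays alone, 652 with dim genes left out (mean below the median of all genes) and 747 with limma's trend and robust options, and 22 to 196 in the 8 fits without 1 array. With the replicate number as a block they became 71. Correlations of the deviations of same-numbered arrays from their group means ran from -0.091 to 0.12. Deviations from means of so few arrays are tied to each other, and those of the 2 empty vector arrays had a correlation of -1. Whether the replicate numbers pair the samples could therefore not be told from these correlations. The count of called genes that differed between T286A and wild type, 103, became 49 with the replicate block, 192 with dim genes left out, 257 with trend and robust options and 21 to 78 without 1 array. The E2F share of rises, 23.3% of 86 promoters, became 14.3% of 14 with 5 arrays and 15.4% of 13 with the replicate block. In the fits without 1 array that kept both empty vector arrays it ran from 13.5% of 37 to 23.3% of 43. Shares of so few promoters are imprecise. Under the other settings (the mean of all probe sets, array weights, centring on housekeeping genes or on array medians) these values kept within 1.5 times, with 406, 404, 299 and 341 genes called. Of the 175 named genes 0 changed direction under any setting, and 105 lost a call with 5 arrays. For the called genes, whose groups did not overlap, the direction was fixed in advance in the fits without 1 array. With arrays centred on their medians, which moved the median of all genes to 0.069, the medians of 18 lists changed sign, among them chemokines, cytokines, S100 proteins, B-cell identity and ribosomal proteins. Only 2 control arrays limit the precision, and the values carry no detection calls, so what dim probe sets did could not be told.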

Other observations

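Some further genes and families are given here as values. They were chosen after their values were seen, and families were taken by gene symbol.

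Histone genes were among the rises. Of 61 measured, 51 differences were positive, 5 rose and 0 fell by limma, with 21 higher and 0 lower at an unadjusted p under 0.05, and their median was 0.23. H1-2, a linker histone, read 12.39, 12.47 and 12.54 in wild type and 12.02 and 12.08 in empty vector and rose by 0.42 ± 0.073 (adjusted p = 0.0322). H2BC9 read 9.26, 9.29 and 9.54 against 8.60 and 8.71 and rose by 0.71 ± 0.098. H2AC8, H2BC11 and H2BC8 rose by 0.63, 0.51 and 0.51. Histone genes are near-identical in sequence, so a probe set can read several of them.

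Some cell cycle genes outside the lists rose. The ubiquitin ligase adaptor DTL, which marks CDT1 for destruction, rose by 0.43 ± 0.072. The cohesion genes CDCA5 and ESCO2 rose by 0.40 ± 0.073 and 0.39 ± 0.06, the centriole duplication gene STIL by 0.33 ± 0.064 and the phosphatase CDKN3 by 0.38 ± 0.061. LIN54, the DNA-binding subunit of the complex that recognises CHR sites, rose by 0.50 ± 0.096 (adjusted p = 0.0475). DTL, CDCA5 and STIL are among the 20 rises with E2F letters in the promoter.

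Of 27 tubulin genes 2 fell, TUBB2A and the alpha-tubulin TUBA1A, which fell by 0.83 ± 0.088 (adjusted p = 0.00466). Cytoskeletal genes were called in both directions, with FMN2, NEBL, KIF16B and DIAPH3 among the rises. The actin-bundling protein FSCN1 fell by 0.69 ± 0.091, drebrin DBN1 by 0.78 ± 0.11, the capping protein CAPG by 0.49 ± 0.083 and gelsolin GSN by 0.50 ± 0.079. The feedback inhibitors SOCS3 and SOCS2 of cytokine signalling fell by 0.56 ± 0.11 and 0.42 ± 0.07. Of 371 solute carrier genes 5 fell, and of 494 zinc finger genes with the ZNF symbol 1 rose and 1 fell. Over all genes 0.603% rose and 1.14% fell, so the falls of solute carriers do not set that family apart. The ZNF genes were called less often than all genes in both directions, which was not tested. The solute carrier and ZNF medians were -0.024 and -0.0096.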
